A study of Homo sapiens with 12 samples.

Results

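INSIG1, HMGCS1, SQLE, IDI1, LSS, DHCR7, SREBF1 and SREBF2 are 8 genes of cholesterol synthesis and its regulation by sterol regulatory element-binding proteins (SREBPs). They were taken by symbol from a table of raw read counts with 26334 gene symbols, and all 8 were among the 12032 genes that passed the minimum of 10 counts on average per library and were tested. The cells were A673, an established Ewing sarcoma line, in a derivative labelled shA673-1c. All cultures were treated with 5 µM actinomycin D, a blocker of transcription, and were collected after 0, 1, 2 or 4 h, with 3 biological replicates per time and 12 libraries in all. The 0 h cultures are described by the same treatment and served as the starting level. All cultures were kept in high-glucose DMEM with 10% serum, with zeocyn at 200 µg/ml and Blasticidin at 20 µg/ml. Sample titles also carry the tag CTL, and the parts sh and 1c of the name are not explained in the sources used here. All values come from this 1 line.

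SREBPs are made as precursors in the membrane of the endoplasmic reticulum. When sterols are scarce, SCAP carries them to the Golgi, where the proteases encoded by MBTPS1 and MBTPS2 release the part that enters the nucleus and activates genes of sterol and fatty acid synthesis. When sterols are plentiful, INSIG proteins hold SCAP and the precursor in the endoplasmic reticulum. With transcription blocked, the level of each transcript over time depends on how fast it is lost relative to the other poly(A) RNA in the library.

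The genes lie on different chromosomes, and differ in the sequence that follows the stop codon. In GENCODE version 44 on GRCh38, the 3′ untranslated region (3′ UTR) of the canonical transcript was 1965 bases long for INSIG1, 3661 for HMGCS1, 338 for SQLE, 1768 for IDI1, 2658 for LSS, 964 for DHCR7, 1288 for SREBF1 and 1645 for SREBF2. ATTTA, the core of AU-rich elements that are known to mark short-lived transcripts, occurred 6 times in INSIG1, 12 times each in HMGCS1 and IDI1, 3 times in SQLE, 4 times in SREBF2, 2 times in DHCR7, 1 time in SREBF1 and not in LSS. Over the 10812 tested coding genes with such sequence, 75.1% held at least 1 ATTTA. The longer form TATTTAT was present in 37.6% of them and in INSIG1, HMGCS1 and SREBF1. These sites are shown because transcripts with quite different courses hold the same letters. Fragments are given 5′ to 3′ with the match in capitals, beginning 431 and 1070 bases after the stop codon in INSIG1, 2063 in HMGCS1 and 537 in SREBF1.
INSIG1 first site: aataggaataaTATTTATccaaaagattt
INSIG1 second site: tatctcttaaaTATTTATtttttttaacg
HMGCS1 site: tttgctataaaTATTTATgaaatgagtta
SREBF1 site: aaaaatgaaatTATTTATaatctgggttt

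TGTANATA, the core bound by Pumilio proteins, occurred 2 times in SQLE and 1 time each in IDI1, SREBF1 and SREBF2, against 31.7% of the genes with at least 1 match. The 3′ UTRs of INSIG1, HMGCS1, SQLE and IDI1 were poor in G and C (37.5%, 36.8%, 29.3% and 32.9%), while those of LSS, DHCR7, SREBF1 and SREBF2 were richer (55.6%, 55.8%, 55.8% and 53.9%), around a median of 41.8% over all of these genes. This split was noticed after the values were seen.

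RefSeq (GRCh38.p14) promoter windows, from 250 bases before to 50 after a start site, were found for 7 of the 8 genes, with 11 windows in all. Both strands were searched for TCACCCCAC and TCACNCCAC, forms of the sterol regulatory element (0.430% and 1.13% of 35116 windows, the first being contained in the second), for the E-box CACGTG (7.26%) and for CCAAT, the core bound by NF-Y (34.6%). SREBF2, the gene of the SREBP that mainly drives cholesterol synthesis, held TCACCCCAC 133 bases before its start and CCAAT on the opposite strand. INSIG1 held CACGTG 55 bases before its start and CCAAT on the opposite strand. Both windows are shown for these 2 regulators. With transcription blocked the counts follow the relative loss of transcripts, so a link between promoter letters and the courses was not tested. Capitals mark the matches, and CCAAT on the opposite strand reads ATTGG.
SREBF2, chr22:41832855-41833154, plus strand: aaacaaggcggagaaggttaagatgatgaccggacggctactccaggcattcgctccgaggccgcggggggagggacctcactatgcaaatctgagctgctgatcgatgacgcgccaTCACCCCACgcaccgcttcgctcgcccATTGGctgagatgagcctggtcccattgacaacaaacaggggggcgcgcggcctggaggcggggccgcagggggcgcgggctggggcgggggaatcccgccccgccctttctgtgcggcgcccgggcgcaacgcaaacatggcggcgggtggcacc
INSIG1, chr7:155297628-155297927, plus strand: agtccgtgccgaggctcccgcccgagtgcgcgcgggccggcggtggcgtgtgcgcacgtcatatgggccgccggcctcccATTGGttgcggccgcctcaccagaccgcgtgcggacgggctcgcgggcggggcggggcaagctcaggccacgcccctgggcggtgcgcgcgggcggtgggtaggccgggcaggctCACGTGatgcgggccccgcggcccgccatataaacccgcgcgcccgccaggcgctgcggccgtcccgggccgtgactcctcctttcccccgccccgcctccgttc

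In the other windows, LSS held CACGTG 41 bases after its start, CCAAT was found in HMGCS1, IDI1, LSS and DHCR7, and none of these letters was found in the SREBF1 window. These are matches of letters and were not tested as binding sites.

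Library totals ranged from 9147018 to 11194705 counts. Replicates of a time differed by more than sampling noise (over 12 pairs, the chi-square divided by its degrees of freedom lay between 3.23 and 8.73), so each was kept as a sample. Of 6 genes known to be high in Ewing sarcoma cells, NR0B1, NKX2-2, PRKCB, CCND1 and STEAP1 were counted in every library (7 to 87 counts for NKX2-2 and 15630 to 20886 for CCND1). The other, CD99, was listed at 0 in every library, and the cause was not tested. Genes of blood, endothelial, epithelial and liver cells (PTPRC, PECAM1, EPCAM, CDH1 and ALB) had at most 6 counts each. Values below are CPM, read counts scaled to a common library size with TMM factors, so each is a share of the poly(A) RNA in its library and not an amount per cell.

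The 8 genes had between 202 counts (INSIG1) and 3417 counts (DHCR7) per library, and their order by level changed over the time course. Per kilobase of the canonical transcript, the highest level at 0 h was that of DHCR7, which makes cholesterol in the last step of the Kandutsch-Russell pathway, at 92.8 ± 12.1 CPM per kb (SD, n = 3). It was followed by SQLE (70.2 ± 3.26), IDI1 (65.8 ± 6.81), SREBF2 (46.4 ± 5.11), HMGCS1 (42.4 ± 6.81), LSS (41.5 ± 6.91), INSIG1 (29.2 ± 6.41) and SREBF1 (18.3 ± 6.70). The ranges of SQLE and IDI1 overlapped, as did those of each pair of neighbours from SREBF2 to SREBF1, although within each replicate the gene named first was the higher in 3 of 3. Those differences were 4.38 ± 3.62 CPM per kb between SQLE and IDI1, 3.93 ± 1.96 between SREBF2 and HMGCS1 and 0.949 ± 0.571 between HMGCS1 and LSS (SD, n = 3), and were not tested. By 4 h the order of these levels was DHCR7 (133), SREBF2 (64.7), LSS (60.6), IDI1 (52.9), HMGCS1 (47.2), SQLE (39.9), SREBF1 (25.3) and INSIG1 (9.21). SQLE had moved from the second place to the sixth, and INSIG1 from the seventh to the last. These places depend on the annotated lengths, and the transcript forms present in these cells were not determined. In mean CPM without division by length, INSIG1 was already below SREBF1 at 0 h (85.0 against 89.7). SQLE was below SREBF1 at 4 h (118 against 124), and the ranges overlapped in both cases. At 4 h the ranges of neighbours from SREBF2 to SQLE overlapped.

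**Figure D1:**
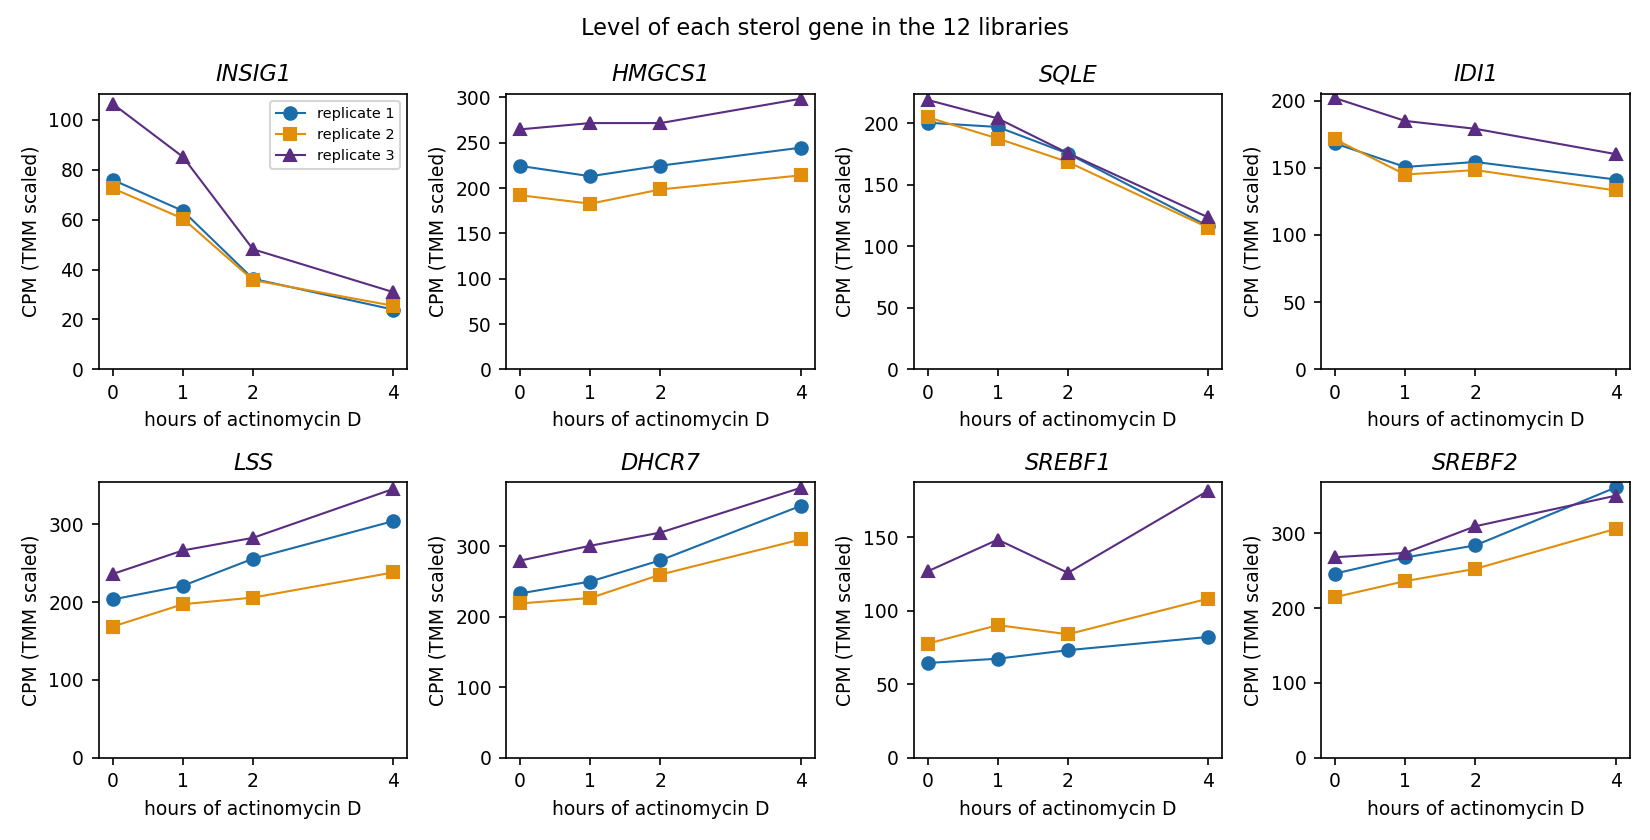
Level of each of the 8 genes (CPM with TMM scaling, linear axis from 0) against hours of actinomycin D, with 1 line per replicate number. INSIG1, SQLE and IDI1 went down in every replicate, replicate 3 lay above the others in most panels, and the upward lines of LSS, DHCR7, SREBF1 and SREBF2 were flat or slightly downward when libraries were scaled to GAPDH and ACTB instead.

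Before the time courses, 1 feature of the replicates needs stating. Cultures with replicate number 3 had the highest level of 7 of the 8 genes at all 4 times, against 12.7% of all tested genes, and SREBF2 was highest there at 3 of the 4 times. Averaged over the times, replicate 3 exceeded the mean of replicates 1 and 2 by 1.80-fold for SREBF1, 1.37-fold for INSIG1, 1.31-fold for HMGCS1, 1.26-fold for LSS, 1.2-fold each for DHCR7 and IDI1, 1.11-fold for SREBF2 and 1.06-fold for SQLE. Over all tested genes the middle 50% of these log2 ratios lay between -0.11 and 0.12. Replicate 3 was highest at all 4 times for 16 of 21 sterol synthesis enzymes (76.2%) and 10 of 13 genes of fatty acid synthesis and desaturation (76.9%). This held for 6 of 15 genes of sterol uptake, transport, storage and efflux (40%), 4 of 21 genes of SREBP processing and turnover and 0 of 9 genes of the isoprenoid branch. The synthesis list holds HMGCS1, SQLE, IDI1, LSS and DHCR7, and the processing list INSIG1, SREBF1 and SREBF2, so their shares are not independent of the 8 genes. The difference was already present at 0 h. Leaving replicate 3 out changed 1 of the 8 slope calls, that of SREBF1.

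**Figure D2:**
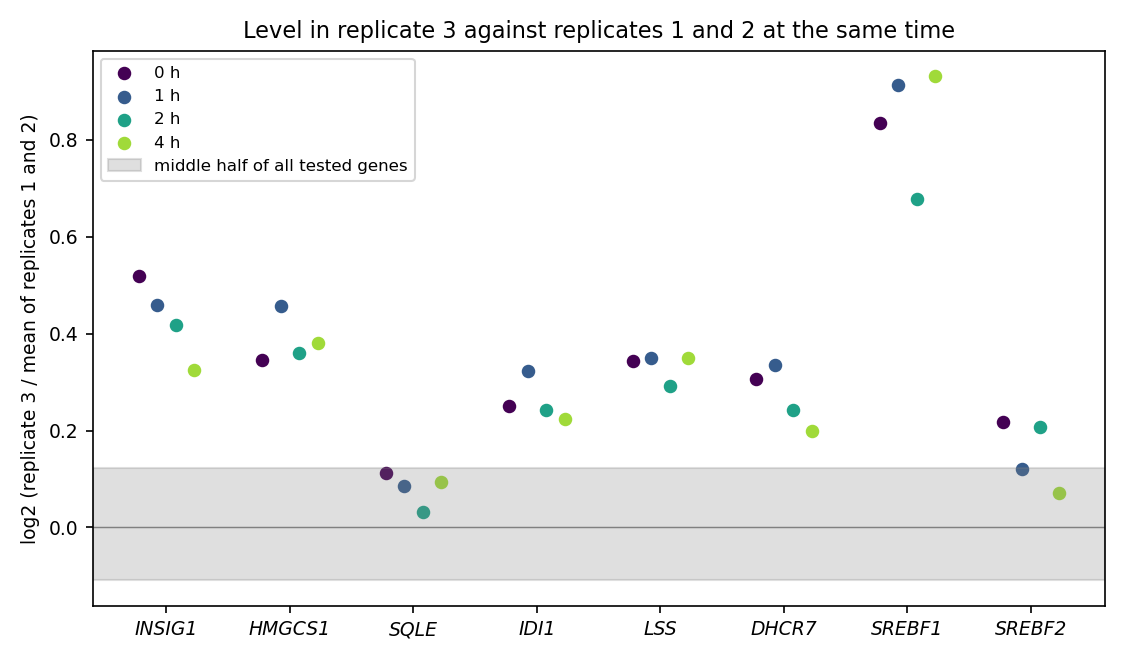
Log2 ratio of the level in replicate 3 to the mean of replicates 1 and 2 for each of the 8 genes, with 1 point per time, and the grey band holding the middle 50% of all tested genes. SREBF1 points lay between 0.68 and 0.93, while all 4 SQLE points lay within the band.

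To follow the loss of each transcript, a slope of log2 level on time was fitted for every tested gene with the quasi-likelihood test of edgeR, and p-values were adjusted over all 12032 genes. A half-life is the negative inverse of a slope. It is relative to the other poly(A) RNA of the library, moves with the scaling and assumes a constant rate. At an adjusted p below 0.05, 32.1% of tested genes fell and 30.7% rose. Of the 8 genes, 3 fell (INSIG1, SQLE and IDI1), 3 rose (LSS, DHCR7 and SREBF2; with scaling to GAPDH and ACTB 0 rose by edgeR, also at an unadjusted p below 0.05, against a background of 0.931% higher and 64.2% lower) and 2 were not called (HMGCS1 and SREBF1). Both shares are close to the background, so the counts themselves are not particular to these genes. Same-numbered cultures deviated together across times, and with the replicate number as a block 3 of the 8 fell and 5 rose, against 34.8% and 36.2% of tested genes. From 0 to 4 h the same split of 3 lower and 3 higher was obtained in the contrast of the end points (background 31.6% lower and 28.7% higher). Under the block 3 were again lower and 5 higher (background 36% lower and 36.8% higher). With library totals 2 were higher, and without replicate 1 only 1 was, where LSS and DHCR7 lost their call. For these last settings the share of all tested genes was not counted in this contrast. Without the 4 h libraries, 2 of the 8 slopes fell and 0 rose by edgeR (3 had a slope above 0 with an unadjusted p below 0.05), against 18.3% of tested genes lower and 11.9% higher in those libraries.

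INSIG1 (chr7:155297776-155310235, plus strand, GRCh38), which encodes the sterol-sensing anchor that retains SCAP and is itself an SREBP target, had the steepest fall of the 8 genes. Its level was 75.9, 72.5 and 106 CPM in replicates 1, 2 and 3 at 0 h, and 63.5, 60.4 and 85.1 CPM at 1 h. It was 36.3, 35.7 and 48.1 CPM at 2 h, and 23.9, 25.5 and 30.9 CPM at 4 h. Each replicate fell at every step, and the 0 h and 4 h groups did not overlap, nor did the 1 h and 2 h groups. The slope was -0.44 log2 per hour (SE 0.0463, edgeR adjusted p = 4.97e-07), a half-life of 2.28 h, and the replicates gave -0.44, -0.39 and -0.46. Only 6.23% of tested genes had a lower slope. The level left at 4 h was 31.9 ± 3.03% of that at 0 h (SD, n = 3), a log2 change of -1.67 (SE 0.178, edgeR adjusted p = 2.03e-06).

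The fall of INSIG1 was not even over time. Its rate was -0.28 ± 0.0352 log2 per hour from 0 to 1 h, -0.80 ± 0.0352 from 1 to 2 h and -0.29 ± 0.0383 from 2 to 4 h (mean ± SD, n = 3). Thus 82.3 ± 1.99% of the 0 h level was left at 1 h and 47.4 ± 2.06% at 2 h. The step from 1 to 2 h was called (edgeR adjusted p = 0.0053), as was that from 2 to 4 h (edgeR adjusted p = 0.0284), while the first hour was not (edgeR adjusted p = 0.489). Departure from a straight line was not called without the block (edgeR adjusted p = 0.613) and was called with it (edgeR adjusted p = 1.06e-04), as was the first hour (edgeR adjusted p = 1.71e-04 with the block).

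SQLE (chr8:124998497-125022283, plus strand) encodes squalene epoxidase, which catalyses the first oxygenation of the pathway. Its level was 200.3, 205 and 219 CPM in replicates 1, 2 and 3 at 0 h and 197, 187 and 204 CPM at 1 h. It reached 175, 168 and 176 CPM at 2 h and 116, 115 and 123 CPM at 4 h. All 3 replicates fell at every step, and the 2 h and 4 h groups lay below all earlier values. The slope was -0.21 log2 per hour (SE 0.0176, edgeR adjusted p = 4.66e-08), a half-life of 4.78 h, and each replicate gave -0.21. That half-life is longer than the 4 h observed. Without the 4 h libraries the slope was -0.12 (edgeR adjusted p = 0.0076). A lower slope was found for 17.6% of tested genes, and 56.9 ± 1.01% of the 0 h level was left at 4 h.

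In contrast to INSIG1, SQLE went down faster late in the course. Its rate was -0.085 ± 0.0534 log2 per hour in the first hour, -0.18 ± 0.0317 in the second and -0.28 ± 0.0208 from 2 to 4 h. The changes from 1 to 2 h (log2 -0.18, edgeR adjusted p = 0.0414) and from 2 to 4 h (log2 -0.55, edgeR adjusted p = 1.21e-05) were called. With the replicate block the departure from a straight line was called for SQLE too (edgeR adjusted p = 0.0025), and without it was not (edgeR adjusted p = 0.240). For INSIG1 and SQLE 1 half-life is therefore only an average over the time course. The slopes of INSIG1 and SQLE differed by 0.222 ± 0.0342 log2 per hour (mean ± SD of the replicates), with SQLE higher in 3 of 3.

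IDI1 (chr10:1039152-1049119, minus strand) encodes isopentenyl diphosphate isomerase, which prepares the building blocks of sterols and isoprenoids. Its level was 168, 171 and 202 CPM in replicates 1, 2 and 3 at 0 h and 151, 145 and 185 CPM at 1 h. It was 154, 148 and 179 CPM at 2 h and 141, 133 and 160.1 CPM at 4 h. Each replicate ended below its start, with little change between 1 and 2 h, and no 4 h value reached the lowest 0 h value. The slope was -0.072 log2 per hour (SE 0.0248, edgeR adjusted p = 0.0182) with replicate values of -0.054, -0.079 and -0.080, and 80.4 ± 3.26% was left at 4 h. The half-life of 13.9 h is far longer than the 4 h observed. The call was lost without replicate 1 (edgeR adjusted p = 0.0520) and without replicate 2 (edgeR adjusted p = 0.0663), as well as without the 0 h libraries (edgeR adjusted p = 0.173) or the 4 h libraries (edgeR adjusted p = 0.307).

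HMGCS1 (chr5:43287470-43313512, minus strand) encodes the cytosolic HMG-CoA synthase at the head of the mevalonate pathway. Its level was 224, 192 and 265 CPM in replicates 1, 2 and 3 at 0 h and 213, 183 and 272 CPM at 1 h. It was 225, 198 and 272 CPM at 2 h and 245, 214 and 299 CPM at 4 h. The groups of all 4 times overlapped, although each replicate ended above its own start, at 111 ± 1.92% of the 0 h level. The slope of 0.042 log2 per hour (SE 0.0357) was not called (edgeR adjusted p = 0.318), but was with the replicate block (0.043, edgeR adjusted p = 0.0010). It turned to -0.096 with scaling to GAPDH and ACTB (edgeR adjusted p = 0.0618).

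LSS (chr21:46188141-46228824, minus strand) encodes lanosterol synthase, which closes the sterol rings. Its level was 203, 169 and 236 CPM in replicates 1, 2 and 3 at 0 h and 221, 197 and 266 CPM at 1 h. It was 256, 206 and 283 CPM at 2 h and 304, 238 and 345 CPM at 4 h. Every replicate was higher at each later time, and all 4 h values lay above all 0 h values. The slope was 0.13 log2 per hour (SE 0.0345, edgeR adjusted p = 0.0030), with 0.15, 0.12 and 0.13 in the replicates, and the level at 4 h was 146 ± 4.14% of that at 0 h, a rise that scaling to GAPDH and ACTB removed (slope -0.0051, edgeR adjusted p = 0.923). With library totals the slope was 0.095 (edgeR adjusted p = 0.0411), and the log2 change from 0 to 4 h was 0.40 and not called (edgeR adjusted p = 0.0588, against 0.54 and 0.0081 with TMM).

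DHCR7 (chr11:71428193-71452868, minus strand), encoding 7-dehydrocholesterol reductase, gave 233, 219 and 279.7 CPM in replicates 1, 2 and 3 at 0 h. It gave 250.02, 227 and 301 CPM at 1 h, and 280.2, 259.9 and 319 CPM at 2 h. At 4 h it gave 357, 309.7 and 383 CPM. Its replicates also moved up at each step, with the 4 h values all above the 0 h values. The slope was 0.13 log2 per hour (SE 0.0261, edgeR adjusted p = 3.09e-04) and -0.0061 with scaling to GAPDH and ACTB (edgeR adjusted p = 0.889). At 4 h, 144 ± 8.44% of the 0 h level was measured.

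SREBF2 (chr22:41833105-41907306, plus strand) encodes SREBP-2, the main activator of the genes of cholesterol synthesis. Its level was 246, 215 and 268 CPM in replicates 1, 2 and 3 at 0 h and 268, 236 and 274 CPM at 1 h. It was 284, 252 and 309 CPM at 2 h and 361, 306 and 350.1 CPM at 4 h. All 4 h values lay above all 0 h values, and each replicate moved up at every step. The slope was 0.12 log2 per hour (SE 0.0213, edgeR adjusted p = 1.07e-04), with 0.14, 0.13 and 0.10 in the replicates, and was -0.017 with scaling to GAPDH and ACTB (edgeR adjusted p = 0.598).

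SREBF1 (chr17:17810399-17837002, minus strand) encodes SREBP-1, whose forms act mainly on fatty acid synthesis. Its level was 64.5, 77.7 and 127 CPM in replicates 1, 2 and 3 at 0 h and 67.4, 90.3 and 148 CPM at 1 h. It was 73.2, 84.1 and 126 CPM at 2 h and 82.2, 108 and 182 CPM at 4 h. The groups of all 4 times overlapped, with replicate 3 above both others throughout, and the 3 replicates ended at 127%, 139% and 143% of their own start. The slope of 0.11 log2 per hour (SE 0.0734) was not called (edgeR adjusted p = 0.219). It was called with the replicate block (edgeR adjusted p = 7.59e-05) or without replicate 3 (0.097, edgeR adjusted p = 0.0270), and was -0.030 with scaling to GAPDH and ACTB (edgeR adjusted p = 0.770). SREBF1 exons overlap RAI1 on the opposite strand, which fell (slope -0.28, edgeR adjusted p = 9.35e-06). The libraries were stranded, but the strand setting used in counting is not given in the sources used here, so the values of SREBF1 are uncertain to that extent. The same limit holds for HMGCS1, LSS and SREBF2, whose exons overlap opposite-strand genes that were not in the count table. It also holds for IDI1, where the opposite-strand gene IDI2-AS1 had at most 10 counts in a library.

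**Figure D3:**
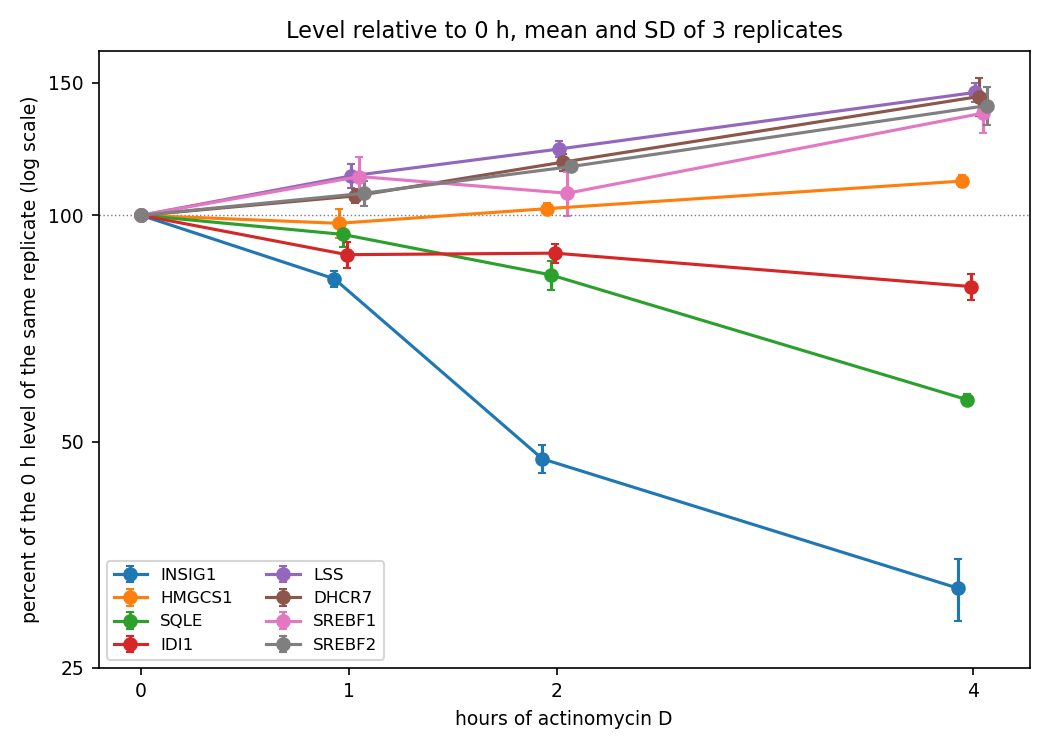
Level as a percent of the 0 h level of the same replicate (log axis) against hours of actinomycin D, with points for the mean and bars for the SD of 3 replicates, points being shifted slightly sideways. INSIG1 reached 31.9% and SQLE 56.9% at 4 h, while LSS, DHCR7, SREBF1 and SREBF2 ended between 137% and 146%, a rise that was absent with scaling to GAPDH and ACTB.

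Across single intervals, few of the 8 genes were called without the block. In the first hour 0 of 8 were called in either direction by edgeR, and 0 of 8 had an unadjusted p below 0.05, against 2.24% of tested genes called lower and 0.349% called higher. From 1 to 2 h INSIG1 and SQLE were lower (background 12.5% lower and 3.76% higher), and from 2 to 4 h the same 2 genes were lower (background 18.3% lower and 12% higher). Departure from a straight line was called by edgeR for 0 of 8 (1 of 8 at an unadjusted p below 0.05) and for 2.7% of tested genes. The first and last levels of neighbouring intervals are shared, so the intervals are not independent.

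With the replicate block more steps were called. In the first hour INSIG1 (log2 -0.28) and IDI1 (-0.17, edgeR adjusted p = 0.0016) were lower and LSS (0.17, edgeR adjusted p = 0.0011) and SREBF1 (0.18, edgeR adjusted p = 0.0201) higher, against 10.5% of tested genes lower and 6.18% higher. From 1 to 2 h INSIG1 and SQLE were lower and LSS, DHCR7 and SREBF2 higher (background 20.7% and 17%). From 2 to 4 h all 8 genes were called, with INSIG1, SQLE and IDI1 lower (background 25.3%) and the other 5 higher (background 25.3%). IDI1 thus had called steps in the first hour and from 2 to 4 h, and a log2 change of 0.0051 between 1 and 2 h (edgeR adjusted p = 0.934 with the block). The departure from a straight line was called for INSIG1, SQLE and SREBF1 (edgeR adjusted p = 0.0172 for the last), against 17.2% of tested genes.

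Ordered by slope, the genes formed a series from INSIG1 through SQLE, IDI1 and HMGCS1 to SREBF1, in which the 3 replicate slopes of each gene lay clear of those of the next. SREBF1, SREBF2, DHCR7 and LSS overlapped. The mean slope of SREBF2 exceeded that of SREBF1 by 0.018 ± 0.0296 log2 per hour, with SREBF2 higher in 2 of 3 replicates, and that of INSIG1 by 0.553 ± 0.0285, with SREBF2 higher in 3 of 3. A difference between 2 genes of the same library is nearly independent of the scaling. A comparison of 3 values with 3 cannot go below p = 0.1 in an exact permutation test, so none was run. SQLE and LSS, whose enzymes act in succession on squalene, differed by 0.343 ± 0.0133 log2 per hour, and IDI1 lay below HMGCS1 by 0.114 ± 0.0183 (SD, n = 3).

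The scaling sets the zero point of all these slopes. The median slope over all tested genes was 0.0093 log2 per hour with TMM, -0.030 with library totals and -0.13 with scaling to GAPDH and ACTB, both of which rose with TMM (0.15, edgeR adjusted p = 6.17e-08 for GAPDH; 0.12, edgeR adjusted p = 4.20e-04 for ACTB). With that last scaling the half-life was 1.73 h for INSIG1, 2.88 h for SQLE and 4.76 h for IDI1. The slopes of the 8 genes moved by nearly the same amount as that median.

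**Figure D4:**
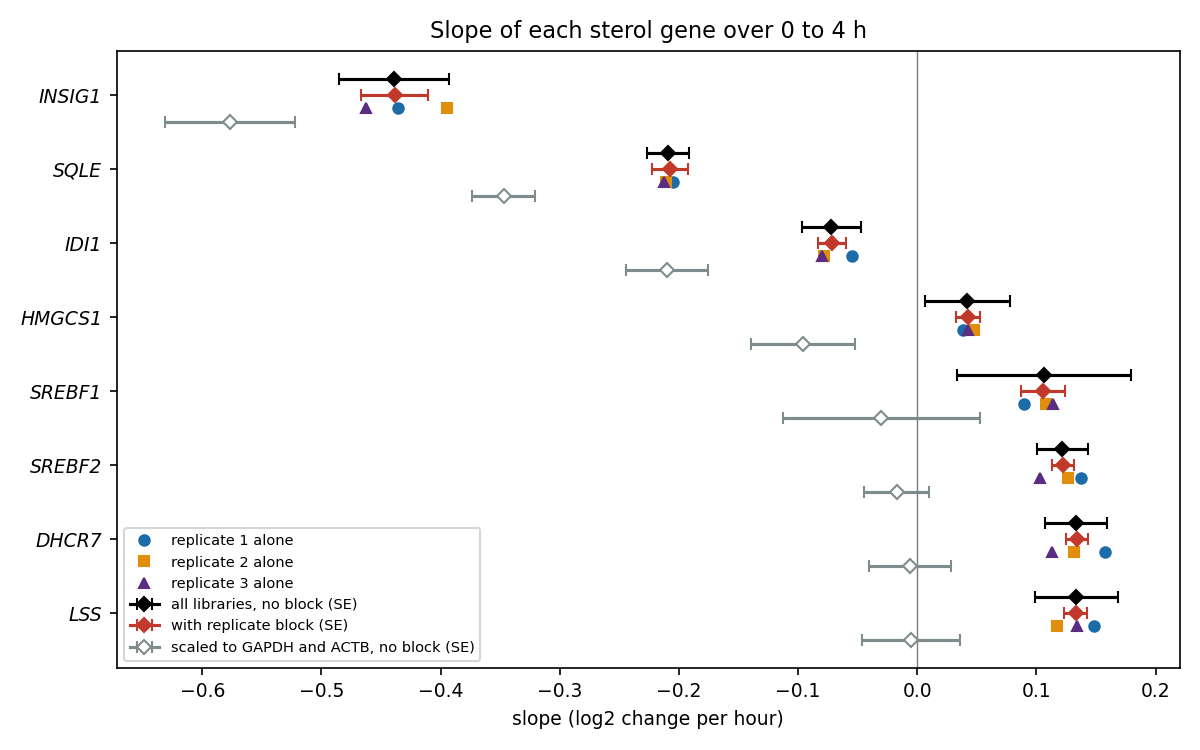
Slope of each of the 8 genes in log2 change per hour, with the single replicates, the estimate of all libraries, that with the replicate block and that with scaling to GAPDH and ACTB (bars are SE). INSIG1, SQLE and IDI1 lay below 0 in all of them, and the last 5 genes were above 0 except with scaling to GAPDH and ACTB, where all 8 lay below 0.

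Genes around these 8 in the pathway were counted by lists. With scaling to GAPDH and ACTB 0 genes of any list rose by edgeR, also at an unadjusted p below 0.05, while 0.931% of all tested genes rose at an adjusted p below 0.05. Among the 21 SREBP processing and turnover genes, which include INSIG1, SREBF1 and SREBF2, 7 fell, 8 rose (none with scaling to GAPDH and ACTB) and 6 were not called (median slope 0.032). With the replicate block 8 fell and 9 rose, against 34.8% and 36.2% of all tested genes, the background for the blocked counts of each list. The escort and both proteases had slopes above 0 with TMM scaling. SCAP had a slope of 0.11 (edgeR adjusted p = 1.02e-05), MBTPS1 one of 0.074 (edgeR adjusted p = 0.0023) and MBTPS2 one of 0.032, which was not called (edgeR adjusted p = 0.157), and all 3 slopes were below 0 with scaling to GAPDH and ACTB. INSIG2, which encodes the other retention protein, fell with -0.14 (edgeR adjusted p = 4.52e-04), and its replicate slopes (-0.18 to -0.099) lay clear of those of INSIG1. RNF139, which encodes an endoplasmic reticulum ubiquitin ligase linked to sterol control, had the steepest called slope of the list at -0.82 (edgeR adjusted p = 8.19e-09). RNF139 departed from a straight line (edgeR adjusted p = 0.0032), with log2 changes of -0.29 from 0 to 1 h, -0.87 from 1 to 2 h and -2.23 from 2 to 4 h, so 1 half-life does not describe it. SP1, a general activator that works with SREBPs, fell with -0.38 (edgeR adjusted p = 6.11e-09). UBE2G2, a ubiquitin-conjugating enzyme of the same degradation route, rose with 0.0998 (edgeR adjusted p = 5.73e-05), and turned to -0.038 with scaling to GAPDH and ACTB.

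Of 21 sterol synthesis enzymes, which include 5 of the 8 genes, 4 fell, 9 rose (none with scaling to GAPDH and ACTB) and 8 were not called (median slope 0.042). Under the block 4 fell and 13 rose. Beside SQLE and IDI1, HSD17B7, a 3-ketosteroid reductase of the pathway, fell with -0.17 (edgeR adjusted p = 0.0400). This call was lost without replicate 1 (edgeR adjusted p = 0.0679), without replicate 2 (edgeR adjusted p = 0.122) and without the 4 h libraries, where the slope was 0.059, and the slope was -0.26 without the 0 h libraries. MVD, mevalonate diphosphate decarboxylase, rose with 0.16 (edgeR adjusted p = 0.0024).

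For sterol uptake, transport, storage and efflux, 15 of 16 genes were tested (ABCA1 was below the count minimum), and 5 fell, 5 rose (none with scaling to GAPDH and ACTB) and 5 were not called (median slope 0.057). The block gave 5 that fell and 7 that rose. MYLIP, a ubiquitin ligase that lowers lipoprotein uptake, fell with a slope of -0.36 (edgeR adjusted p = 4.17e-06). MYLIP departed from a straight line (edgeR adjusted p = 0.0180), with -0.62 without the 4 h libraries and -0.23 without the 0 h libraries. OSBP, an oxysterol-binding transfer protein, fell with -0.20 (edgeR adjusted p = 3.18e-07), and with -0.11 without the 4 h libraries. SCARB1, the HDL receptor, rose with 0.17 (edgeR adjusted p = 4.18e-08), as did NPC2, a lysosomal cholesterol carrier, with 0.17 (edgeR adjusted p = 2.56e-07) and SCP2, a sterol carrier protein, with 0.14 (edgeR adjusted p = 4.20e-05).

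Fatty acid synthesis and desaturation, driven mainly by SREBP-1, had 2 of 13 genes falling, 7 rising (none with scaling to GAPDH and ACTB) and 4 not called (median slope 0.066). Under the block 2 fell and 9 rose. MID1IP1, an activator of acetyl-CoA carboxylase, fell with -0.32 (edgeR adjusted p = 2.99e-07) and the elongase ELOVL6 with -0.15 (edgeR adjusted p = 0.0085). The ELOVL6 call was lost without replicate 2 (edgeR adjusted p = 0.0577) and without the 4 h libraries (slope -0.049, edgeR adjusted p = 0.725). FADS2, a desaturase, rose with 0.16 (edgeR adjusted p = 0.0051), ACSS2, acetyl-CoA synthetase, with 0.14 (edgeR adjusted p = 0.0087) and FASN, fatty acid synthase, with 0.13 (edgeR adjusted p = 0.0014). In the isoprenoid branch (median slope 0.022) 0 of 9 genes rose by edgeR (1 at an unadjusted p below 0.05, and 0 by DESeq2 or limma) and 1 fell, PGGT1B, a subunit of a protein prenyltransferase, which fell with -0.15 (edgeR adjusted p = 1.68e-04), whereas 2 fell and 2 rose under the block. Each list thus held genes that fell beside genes with slopes above 0, as did the 12032 tested genes (3859 fell and 3694 rose, median slope 0.0093). Under the block 4182 of all tested genes fell and 4356 rose.

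**Figure D5:**
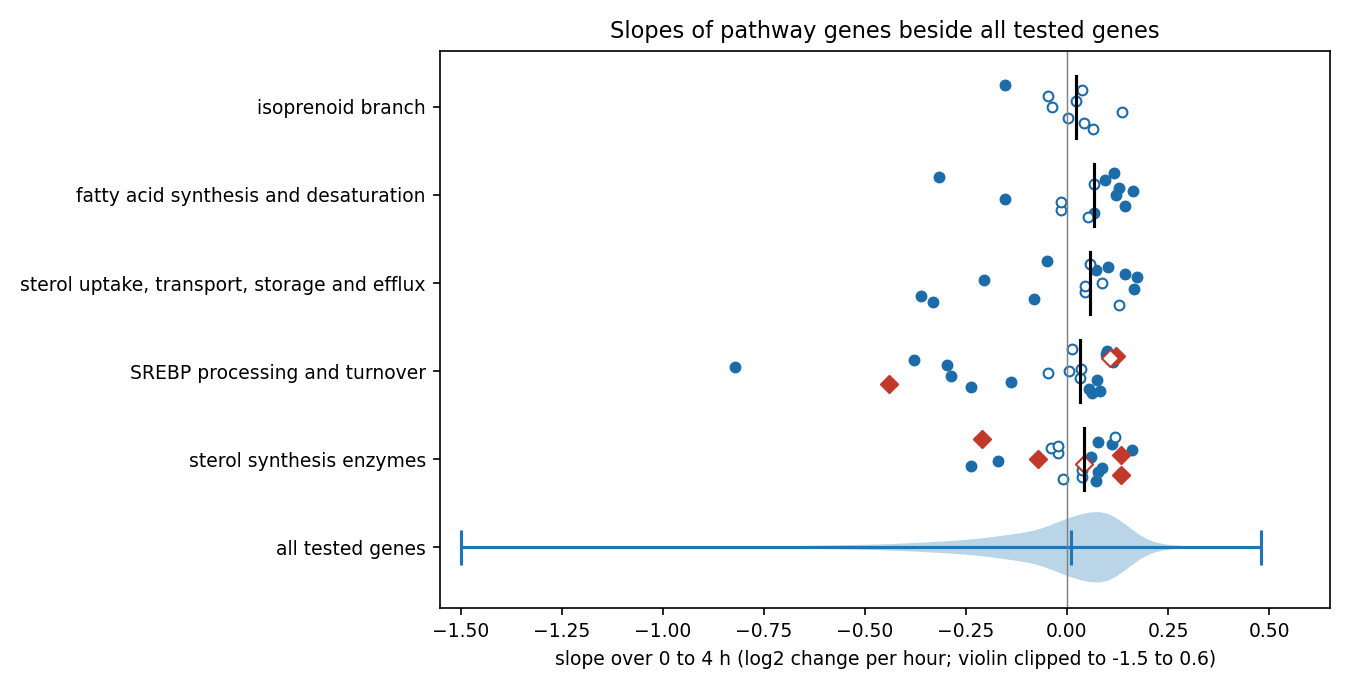
Slopes in log2 change per hour of the genes of 5 pathway lists above the distribution of all tested genes, with filled symbols for adjusted p below 0.05, diamonds for the 8 genes and a black bar for each list median. Every list median lay between 0.022 and 0.066 with TMM scaling, within the bulk of all genes, and with scaling to GAPDH and ACTB 0 list genes rose, as against 0.931% of all tested genes.

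The 3′ UTR composition described above was weakly correlated with the slopes over all genes. Among 4739 tested coding genes with a 3′ UTR below 40% G and C, as in INSIG1, HMGCS1, SQLE and IDI1, 39.7% fell and 22.2% rose (median slope -0.023). Among 2945 genes in between, which held 0 of the 8, 33.9% fell and 29.5% rose. Among 3128 genes at 50% or more, as in LSS, DHCR7, SREBF1 and SREBF2, 20.9% fell and 47.2% rose (median slope 0.074, all with TMM scaling). Of the 8 genes, HMGCS1 and SREBF1 were not called without the block. Across 10812 genes Spearman's rho of slope and G and C content was 0.28, and that of slope and ATTTA per kb was -0.24, where genes share libraries and are not independent replicates. Its part in the slopes of the 8 genes was not tested.

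Finally, the tested genes with the most similar pattern of levels were sought for each of the 8 among 8848 genes averaging 100 counts or more per library. Pearson's r of log2 CPM was taken over the 12 libraries, which all pairs share. Such an r mixes differences between replicates with changes over time, and does not measure the size of a change. The highest r of so many genes is high by selection, and no background of r was made. INSIG1 was most like RBBP6 (r = 0.985) and E2F2 (0.982), and SQLE most like EBLN3 (0.992) and HERPUD2 (0.991). The slope of EBLN3 was -0.35 log2 per hour, steeper than that of SQLE (-0.21). IDI1 was closest to SLC16A9 (0.973) and FANCL (0.947), and HMGCS1 to OSBPL1A (0.973) and TUBA4A (0.962). LSS was nearest to HDAC6 (0.969) and B4GALNT1 (0.968), DHCR7 to HSD17B4 (0.989) and HDAC1 (0.988), and SREBF2 to AP1B1 (0.981) and CCND3 (0.981). SREBF1 was nearest to OLMALINC (0.985) and SEMA6B (0.962), neither of which had a called slope (edgeR adjusted p = 0.281 and 0.253). The same held for both genes most like HMGCS1 (edgeR adjusted p = 0.509 and 0.226) and for SLC16A9 (edgeR adjusted p = 0.0569).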

How the data were processed

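Poly(A) RNA of 12 cultures was measured by stranded RNA-Seq. The authors deposited whole-number counts of reads per gene symbol. Per the labels, the submitters' processing notes name FastQC, STAR and hg19. Versions, annotation, counting program and strand setting are not given in the sources used here, and the paper's general account of this library kit does not name these libraries. All table columns were matched to samples by title, with 0 unmatched.

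R 4.3.3 and edgeR 4.0.16 (glmQLFit, glmQLFTest, TMM factors) were used on genes averaging 10 counts or more per library, with time as a number for slopes or as 4 groups for contrasts, no block, and Benjamini-Hochberg adjustment over all tested genes (threshold 0.05). A standard error is the estimate divided by the square root of F. The common biological coefficient of variation was 0.0905. Slopes of single replicates are least squares fits to log2 CPM. Scripts were tested on simulated data in which few genes changed and same-numbered replicates shared no deviation. That test does not bear on the choice of block or scaling.

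Groups and replicate numbers came from the labels. Same-numbered cultures deviated together (correlation 0.447 to 0.773 over 18 pairs of times; -0.549 to 0.112 for different numbers), so blocked values are given for the 8 genes where a call changes and for each list count. The labels call the replicates biological and say nothing of days.

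Alternatives were library totals, scaling to GAPDH plus ACTB, size factors and the Wald test of DESeq2 1.42.0, limma 3.58.1 on log2(CPM + 1), other count minimums, the block, leaving out each replicate and other sets of times; blocked intervals and alternatives for the correlations were added after seeing the data. All 8 genes, the 5 pathway lists and the tests were chosen with earlier results of these data known. Named in each list are up to 3 genes with the steepest called fall and up to 3 with the steepest called rise, beside SCAP, INSIG2, MBTPS1 and MBTPS2; 2 genes of this rule are not reported here but are in the counts. The reference (GENCODE version 44, RefSeq) is GRCh38, another build than the notes name, and was used by gene symbol only.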

Additional observations from a re-analysis of the deposited data

How the results depend on the processing

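The falls of INSIG1 and SQLE were called under every alternative run. Other results depended on the scaling, times and replicates, and the cause was not tested. With library totals, 3 fatty acid, 4 SREBP processing, 4 sterol synthesis and 3 uptake genes rose, and 3 isoprenoid genes fell. Of all genes, 4704 fell and 2242 rose with that scaling. MBTPS1 and ACSS2 were then not called, LSS was not called from 0 to 4 h, and MBTPS2 had a slope of -0.0072. With scaling to GAPDH plus ACTB, 0 of the 8 genes rose in slope or from 0 to 4 h, 0 rose in the fatty acid, SREBP processing, sterol synthesis and uptake lists, 6, 16, 12 and 8 fell there, 8 isoprenoid genes fell, and of all genes 7729 fell and 112 rose. Slopes became -0.096 (HMGCS1), -0.0051 (LSS), -0.0061 (DHCR7), -0.030 (SREBF1), -0.017 (SREBF2), -0.024 (SCAP), -0.065 (MBTPS1), -0.11 (MBTPS2), -0.0084 (FASN) and -0.038 (UBE2G2), and the log2 changes from 0 to 4 h -0.40 (HMGCS1), -0.0057 (LSS), -0.032 (DHCR7), -0.073 (SREBF1) and -0.072 (SREBF2). GAPDH and ACTB form this scale, so the ACTB slope of -0.017 and the lost GAPDH call were set by the scaling. With a mean of at least 50 counts 2 isoprenoid genes fell, while 3400 of all genes fell and 3408 rose. With the replicate block 5 of the 8 genes rose in slope and from 0 to 4 h, and 2 isoprenoid genes fell and 2 rose. By slope, 4182 of all genes fell and 4356 rose with the block. Of the 8 genes it changed the slope calls of HMGCS1 and SREBF1 alone. With 0, 1 and 2 h only, 0 of the 8 genes rose by edgeR (3 at an unadjusted p below 0.05), the IDI1 fall was lost (adjusted p = 0.307, edgeR), the calls of INSIG2, MBTPS1, FADS2, ACSS2, FASN, MVD, SCP2 and ELOVL6 were lost, 1 fatty acid gene fell and 2 rose, 2 SREBP processing genes rose, 2 sterol synthesis genes fell and 1 rose, 3 uptake genes fell and 2 rose, HSD17B7 had a slope of 0.059, and 2198 of all genes fell and 1433 rose. With 1, 2 and 4 h only, 1 isoprenoid gene rose, 3 uptake genes fell and IDI1 was not called (adjusted p = 0.173, edgeR). The count over all genes is not given for these times, so these list counts have no background. Leaving out 1 replicate gave 1 to 4 of the 8 genes risen from 0 to 4 h (1 without replicate 1, where LSS and DHCR7 lost their call), 0 to 1 isoprenoid genes risen and 1 to 2 fallen, 2 to 4 sterol synthesis, 1 to 2 fatty acid and 3 to 5 uptake genes fallen. By slope, 3531 of all genes fell and 3097 rose without replicate 1. Without replicate 2, 3467 fell and 2970 rose. Both settings gave fewer calls than all libraries did. Counts over all genes from 0 to 4 h were not made with a replicate left out. Of the values for single genes, 458 kept direction and call, 33 lost the call, 19 gained it and 18 reversed. These counts include GAPDH and ACTB under their own scaling. Of the correlations under the alternatives, 83 moved by less than the SD of r between replicates, and 13 moved by more.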
